A study of Mus musculus with 7 samples.

Results

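Coding exons of messenger RNA that lay outside the filtered peak list were followed through RNA precipitates made with an antibody against EZH2, which is the subunit of Polycomb repressive complex 2 that methylates histone H3. A member was a row of the deposited count table that was absent from the filtered list and whose largest share of bases on the same strand was coding sequence (CDS) in GENCODE M21, the mouse gene annotation on build mm10, with CDS taking precedence over UTR, noncoding exon and intron. This gave 53779 members of 303889 features in all, or 17.7%. Of the members, 52570 overlapped the coding sequence of 1 gene, and these fell in 10820 genes, with a median of 3 and at most 89 members per gene. The median length was 182 bases, with a range of 75 to 7064 bases, and the median share of coding bases was 75.9%. A total of 47319 members spanned 1 coding block, meaning 1 uninterrupted run of coding bases, so most members were single coding exons with their flanks.

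The cells were mouse embryonic stem cells of a male CAST/B6 line with a Rosa26-RMCE cassette, and every group had 3 days of doxycycline, whose inducible target the labels do not give. The SAFB DKO group lacked both Safb and Safb2 and held clones 13 and 4. The EZH2 KO group lacked Ezh2 and held clones 12 and 19. The WT group held the parental line and clones 20 and 44. Per the series title, the antibody also recognises SAFB. Each library was thus 1 clone or the parental line, and p-values measure the spread between these clones. In bulk precipitates, fewer cells with a transcript and less of it per cell cannot be told apart.

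SAFB and SAFB2 are nuclear RNA-binding proteins first described as binders of scaffold attachment regions of chromatin, and SAFB is known to bind purine-rich RNA, often rich in adenine. Abundant messenger RNA is commonly carried over into immunoprecipitates, so a coding exon can be read with or without contact with the protein targeted. Most mammalian coding exons are short, and a small set of genes, among them those for large nuclear proteins and for zinc finger proteins, hold most of their coding sequence in 1 long exon.

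Sequences from both kinds of exon are shown because the results below divide the members by exon length and by adenine content. Each is the window of 30 bases with the most adenine in the longest coding block of the gene's longest member, read 5′ to 3′ on the gene's strand from the GENCODE M21 transcripts, with adenine in capitals. The first set is from members that were lower in SAFB DKO than in WT: Srrm2 exon 10 of 14 at mm10 chr17:23817332-23817361 on the plus strand, Rif1 exon 30 of 36 at chr2:52110827-52110856 on the plus strand, L1td1 exon 2 of 2 at chr4:98736557-98736586 on the plus strand and Ccdc73 exon 16 of 18 at chr2:104991686-104991715 on the plus strand.
Srrm2: AAAAcAAgAtAAAAgtgAAAtAtcAAcAgA
Rif1: AAAAAAAggAAAgAcgAAAggAAgAAgAAA
L1td1: AAAgAAgAAAcActggAccggAAgAAtAAA
Ccdc73: AAAAAAtAAAAcAAAtggtAAgAgAAgAgA

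The second set is from members that were higher in SAFB DKO than in WT, all on the minus strand: Actb at chr5:142904503-142904532 within a member over exons 4 to 6 of 6, Aldoa at chr7:126795635-126795664 over exons 6 to 9 of 9, Eef1a1 at chr9:78480258-78480287 over exons 2 to 4 of 8 and Fasn at chr11:120808157-120808186 over exons 30 to 43 of 43.
Actb: AgAgggAAAtcgtgcgtgAcAtcAAAgAgA
Aldoa: gAAgAAggAgAAcctgAAggcAgcccAggA
Eef1a1: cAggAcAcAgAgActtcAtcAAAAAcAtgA
Fasn: AgctgAtcAgtAtAAgcccAAggccAAgtA

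The windows of the first set held 19 adenines in Srrm2, 21 in Rif1, 17 in L1td1 and 20 in Ccdc73. Those of the second set held 12 in Actb, 12 in Aldoa, 14 in Eef1a1 and 11 in Fasn. A longer block offers more windows to choose from, and the blocks were 5424 bases in Srrm2 and 2856 bases in Rif1 but 439 bases in Actb and 180 bases in Eef1a1. Over a whole block, where length gives no such advantage, adenine made up 28.9% in Srrm2, 35.6% in Rif1, 33.7% in L1td1 and 34.8% in Ccdc73, against 20.0% in Actb, 23.0% in Aldoa, 31.1% in Eef1a1 and 21.4% in Fasn. Across the coding blocks of members over 1000 bases, 0.521% of all 30-base windows held at least 17 adenines and 13.0% held at least 12. The shown windows are the richest of their blocks, and their genes were picked by hand. The shares over all windows are therefore no measure of how rare the shown windows are.

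Deposited counts totalled 18738499 and 15812517 in SAFB DKO, 7050832 and 8353603 in EZH2 KO, and 21832539, 21051227 and 19024702 in WT libraries. The shallow EZH2 KO libraries had at least 1 count in 60.1% and 75.4% of the members, against 94.6% to 98.1% in the SAFB DKO and WT libraries. The EZH2 KO columns were also named by a different pattern in the table, so genotype and any difference between sequencing runs cannot be told apart. The columns of control-antibody precipitates belong to no sample given and were not used here, and spike-in RNA was not analysed here. Levels are given as CPM, the standard counts scaled to library size, here after the trimmed mean of M-values (TMM) factors of the unlisted features, and log2 fold changes come from edgeR's quasi-likelihood test with Benjamini-Hochberg adjustment over the whole table, with a call at an adjusted p under 0.05.

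The targeted genes were checked in every library over their own members. Safb had 0.639 and 0.484 CPM in SAFB DKO, 49.9 and 44.5 CPM in EZH2 KO, and 86.0, 83.8 and 57.2 CPM in WT. Safb2 had 1.51 and 0.323 CPM in SAFB DKO, 177 and 211 CPM in EZH2 KO, and 109, 111 and 62.8 CPM in WT. Ezh2 had 85.4 and 95.5 CPM in SAFB DKO, 0.601 and 0 CPM in EZH2 KO, and 82.4, 99.95 and 88.9 CPM in WT. Each targeted gene was thus near 0 in its own knockout and in no other library. A member over Safb2 exon 4 had no count in either SAFB DKO library, at least 124-fold below WT when 3 counts over the group are taken as the floor. A member over Ezh2 exon 10 had no count in either EZH2 KO library, at least 98.1-fold below WT on the same floor.

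Coding members took a larger part of the RNA counted in SAFB DKO and a smaller part in EZH2 KO than in WT. They held 32.6% and 32.5% of all counts in SAFB DKO, 25.2% and 23.4% in EZH2 KO, and 28.8%, 29.0% and 29.9% in WT, and no 2 groups overlapped. The means were 32.6% ± 0.0504 in SAFB DKO (SD, n = 2), 24.3% ± 1.24 in EZH2 KO (SD, n = 2) and 29.2% ± 0.597 in WT (SD, n = 3). An exact two-sided permutation test gave p = 0.1 for each knockout against WT, the smallest that 2 against 3 libraries allow. The filtered peaks themselves take part in these totals: outside the filtered list the share was 33.3% ± 0.0216 in SAFB DKO, 33.5% ± 0.641 in EZH2 KO and 35.1% ± 0.541 in WT, so that the order of SAFB DKO and WT turned round. Among members with at least 90% coding bases the share was 8.95% ± 0.246 in SAFB DKO, 11.1% ± 0.592 in EZH2 KO and 10.8% ± 0.172 in WT, so that SAFB DKO lay below WT and EZH2 KO overlapped with WT.

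**Figure D1:**
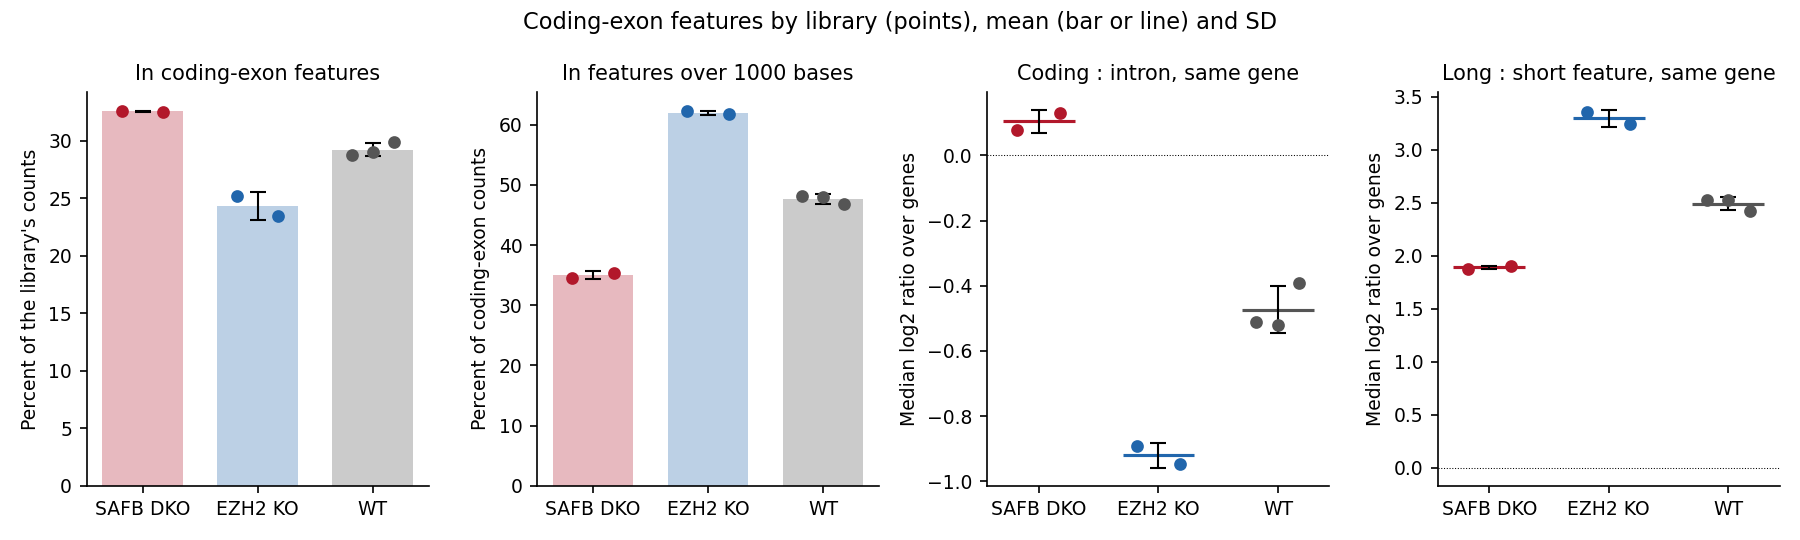
Values of each library, with 1 point per library, a bar or line at each group mean and an SD error bar, for the share of counts in coding members, the coding to intron ratio within genes, the share of member counts in members over 1000 bases and the ratio of long to short members within genes. In each panel the SAFB DKO and EZH2 KO libraries stand on opposite sides of the 3 WT libraries.

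The coding to intron ratio compares both kinds of feature of the same gene in the same library, so scaling drops out. Over 7869 genes the median log2 ratio was 0.08 and 0.13 in SAFB DKO, −0.89 and −0.95 in EZH2 KO, and −0.51, −0.52 and −0.39 in WT. In the median gene coding members were therefore slightly above introns in SAFB DKO and below them in both other groups, with no overlap between groups. The difference was 0.58 for SAFB DKO minus WT and −0.45 for EZH2 KO minus WT, each with an exact permutation p = 0.1, the smallest possible. The ratio was higher in SAFB DKO than in WT in 6089 genes, or 77.4%, and higher in EZH2 KO than in WT in 2712 genes, or 34.5%. When counts were first summed over genes the difference was 0.10 for SAFB DKO minus WT (exact permutation p = 0.2) and −0.21 for EZH2 KO minus WT. The mean log2 ratio of these sums was 0.38 in SAFB DKO, 0.28 in WT and 0.07 in EZH2 KO. Summed coding counts were thus above intron counts in every group.

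Of the 53779 members, 43599 passed the filter on low counts. In SAFB DKO 1738 members fell and 1714 rose against WT, which was 3.99% and 3.93% of those tested, beside 17.4% and 2.26% of all features tested in the table. The median member log2 fold change was 0.36, against −0.17 over all features. In EZH2 KO 5922 members fell and 1236 rose against WT, or 13.6% and 2.83%, beside 8.07% and 7.5% of all features, with a median of −0.68 against −0.21 over all features. Between the knockouts 2543 members were lower and 13498 were higher in SAFB DKO than in EZH2 KO, or 5.83% and 31.0% beside 23.3% and 16.6% of all features. The comparisons with WT share the same 3 WT libraries. The counts moved by more than 1.5 times without single libraries: in SAFB DKO against WT the 3452 calls became 1635 without SAFB DKO 1, 2027 without SAFB DKO 2, 8137 without EZH2 KO 1, 8220 without EZH2 KO 2, 1527 without WT 1, 1609 without WT 2 and 2041 without WT 3, while the median stayed between 0.30 and 0.37. In EZH2 KO against WT the 7158 calls became 14013 without EZH2 KO 2, 3157 without WT 1, 3298 without WT 2 and 2819 without WT 3, and the median was −1.29 without EZH2 KO 2 and between −0.77 and −0.62 without any other 1 library. Among members averaging 50 counts or more the medians were nearer to 0, at 0.18 in SAFB DKO and −0.29 in EZH2 KO against WT and 0.48 between the knockouts, instead of 0.36, −0.68 and 1.07.

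The split into higher and lower depended on the scaling and on the libraries kept. In SAFB DKO against WT the lower members made up 50.3% of the calls with TMM over unlisted features, 38.2% with TMM over all features, 22.6% with column totals, 23.0% with DESeq2 and 92.3% with TMM over the coding members alone. These scalings moved the median of all members by 0.09, 0.22, 0.25 and −0.33 in that order. Left out in turn, WT 1, WT 2 and WT 3 gave lower shares of 78.6%, 76.8% and 68.3% with TMM over unlisted features. In EZH2 KO against WT the lower share was 82.7% with TMM over unlisted features and 56.5% with TMM over coding members, which moved the median by 0.38. Between the knockouts it was 15.9%, and 43.7% with TMM over coding members. Levels of whole groups are therefore read below against the median of all members and within genes.

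Other classes of unlisted features gave the setting for these medians. In SAFB DKO against WT the median was 0.26 for UTR features, 0.00 for noncoding exons, −0.17 for introns, −0.59 for antisense features, −1.56 for intergenic features and −3.18 for the listed peaks. Against WT, EZH2 KO had −0.52 for UTR features, −0.29 for noncoding exons, −0.23 for introns, 0.06 for antisense features, 0.38 for intergenic features and 0.81 for the listed peaks. Among these classes the coding members had the highest median in SAFB DKO and the lowest in EZH2 KO against WT.

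Within the coding members, long features went the other way from short ones. In SAFB DKO against WT the median log2 fold change was 0.51 for members of 75 to 150 bases, 0.38 for 151 to 300, 0.34 for 301 to 600, 0.16 for 601 to 999, −0.42 for 1001 to 2000 and −0.80 for 2001 to 7064 bases. The same bins in EZH2 KO against WT had −0.88, −0.80, −0.63, −0.31, 0.33 and 0.56. Each series ran in 1 direction with length. The limit of 1000 bases was chosen after the values were seen, and the 319 members of 1001 to 1100 bases, just above it, had medians of −0.10 for SAFB DKO and 0.04 for EZH2 KO against WT. Features were called on WT libraries, so the length of a feature depends on its WT signal.

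**Figure D2:**
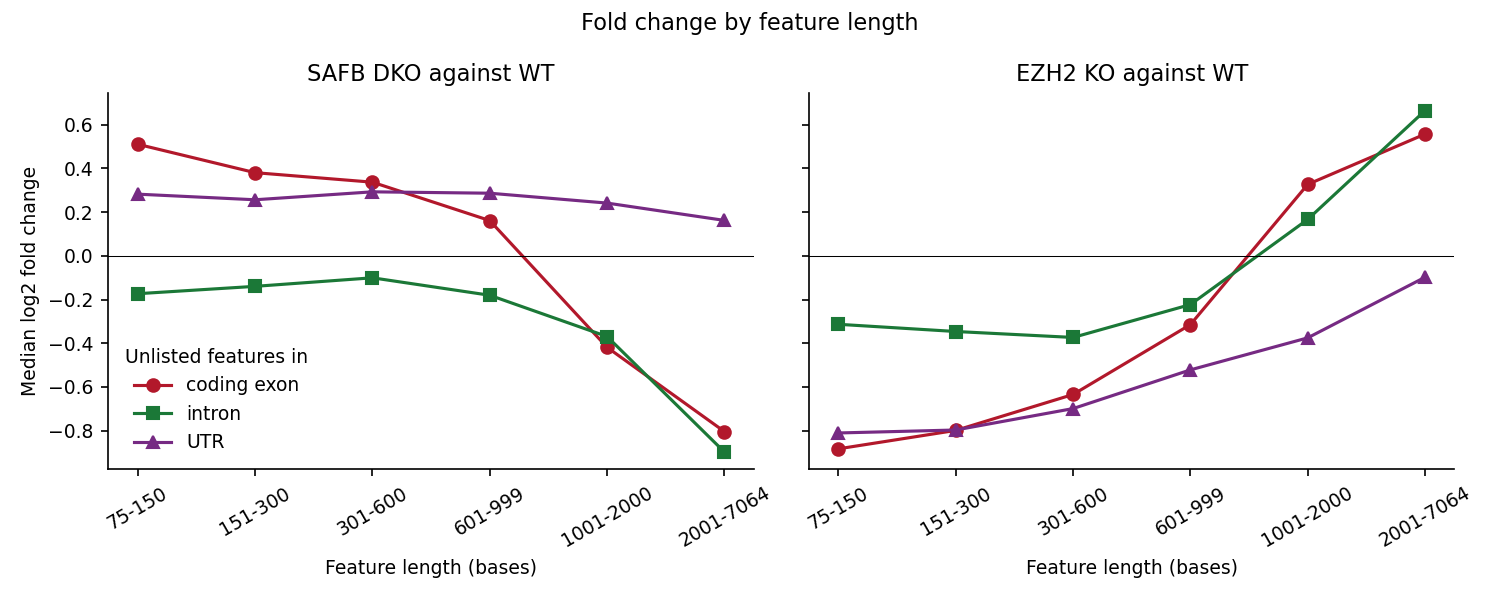
Median log2 fold change against WT by feature length for coding members, UTR features and introns, with SAFB DKO in the left panel and EZH2 KO in the right panel. The medians of the shortest and longest coding members are 0.51 and −0.80 for SAFB DKO, and −0.88 and 0.56 for EZH2 KO.

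Against WT, SAFB DKO libraries showed 1122 fallen and 188 risen of 2639 members over 1000 bases, with a median of −0.55. Of 40960 shorter members, 616 fell and 1526 rose, with a median of 0.39. With TMM over coding members these calls turned round, to 1474 shorter members fallen and 216 risen, with a median of 0.06. In EZH2 KO against WT 293 long members fell and 909 rose, with a median of 0.40, whereas 5629 shorter members fell and 327 rose, with a median of −0.75. With TMM over coding members 2889 shorter members fell and 937 rose in EZH2 KO, with a median of −0.36. Set directly against EZH2 KO, without WT, 1476 long members were lower and 426 higher in SAFB DKO, with a median of −0.97, and 1067 shorter members were lower and 13072 higher, with a median of 1.15. With each library left out in turn, the median of the long members against WT stayed between −0.61 and −0.53 in SAFB DKO and between 0.23 and 0.44 in EZH2 KO, while the 188 long members risen in SAFB DKO became 56 without SAFB DKO 1, 93 without SAFB DKO 2, 286 without EZH2 KO 2, 68 without WT 1, 69 without WT 2 and 121 without WT 3. The 293 long members fallen in EZH2 KO became 168 without WT 1, 193 without WT 2 and 171 without WT 3. The 1526 shorter members risen in SAFB DKO became 372 without SAFB DKO 1, 581 without SAFB DKO 2, 5177 without EZH2 KO 1, 5260 without EZH2 KO 2, 259 without WT 1, 305 without WT 2 and 525 without WT 3, and the 5629 fallen in EZH2 KO became 12053 without EZH2 KO 2, 2269 without WT 1, 2349 without WT 2 and 1936 without WT 3. The 616 shorter members fallen in SAFB DKO became 350 without SAFB DKO 1, 397 without SAFB DKO 2, 1311 without EZH2 KO 1, 1300 without EZH2 KO 2, 321 without WT 1, 340 without WT 2 and 379 without WT 3, and the 327 risen in EZH2 KO became 791 without EZH2 KO 2, 98 without WT 1, 108 without WT 2 and 87 without WT 3. Shorter members that averaged 50 counts or more had medians against WT of 0.26 for SAFB DKO, and −0.41 for EZH2 KO, while long ones had −0.59 and 0.68. Introns over 2000 bases had medians of −0.90 for SAFB DKO and 0.67 for EZH2 KO, close to the values of coding members of that length. UTR features over 2000 bases had 0.16 in SAFB DKO and −0.10 in EZH2 KO. In genes with no filtered peak, coding members of 2001 bases or more still had medians of −0.71 for SAFB DKO and 0.50 for EZH2 KO.

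The uninterrupted coding block separated the long members further. Of 1765 long members with 1 coding block, 963 fell in SAFB DKO against WT and 17 rose, with a median of −0.83. Of 497 long members that joined 3 or more blocks, 19 fell and 152 rose, with a median of 0.47. Of the single blocks 72 fell and 766 rose in EZH2 KO against WT, with a median of 0.60, and of the joined blocks 186 fell and 14 rose, with a median of −0.67. The medians of both kinds kept their signs under each of the 4 other scalings, between −1.17 and −0.57 in SAFB DKO and between 0.35 and 0.98 in EZH2 KO for single blocks, and between 0.13 and 0.73 in SAFB DKO and between −0.91 and −0.29 in EZH2 KO for joined blocks. With TMM over coding members the calls of joined blocks turned round in SAFB DKO, to 41 fallen and 22 risen. In EZH2 KO that scaling gave 94 joined blocks fallen and 36 risen. Leaving out single libraries changed the counts more than the medians: the 152 joined blocks risen in SAFB DKO became 46 without SAFB DKO 1, 72 without SAFB DKO 2, 52 without WT 1, 53 without WT 2 and 99 without WT 3, and the 186 fallen in EZH2 KO became 117 without WT 1 and 121 without WT 3. The 72 single blocks fallen in EZH2 KO became 127 without EZH2 KO 2, 32 without WT 1, 40 without WT 2 and 30 without WT 3. The smaller counts, 17 single blocks risen and 19 joined blocks fallen in SAFB DKO and 14 joined blocks risen in EZH2 KO, became 6 to 33, 8 to 30 and 6 to 12 with 1 library left out. By their medians, long features over several short exons thus went with the short features, and long features over 1 exon did not.

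**Figure D3:**
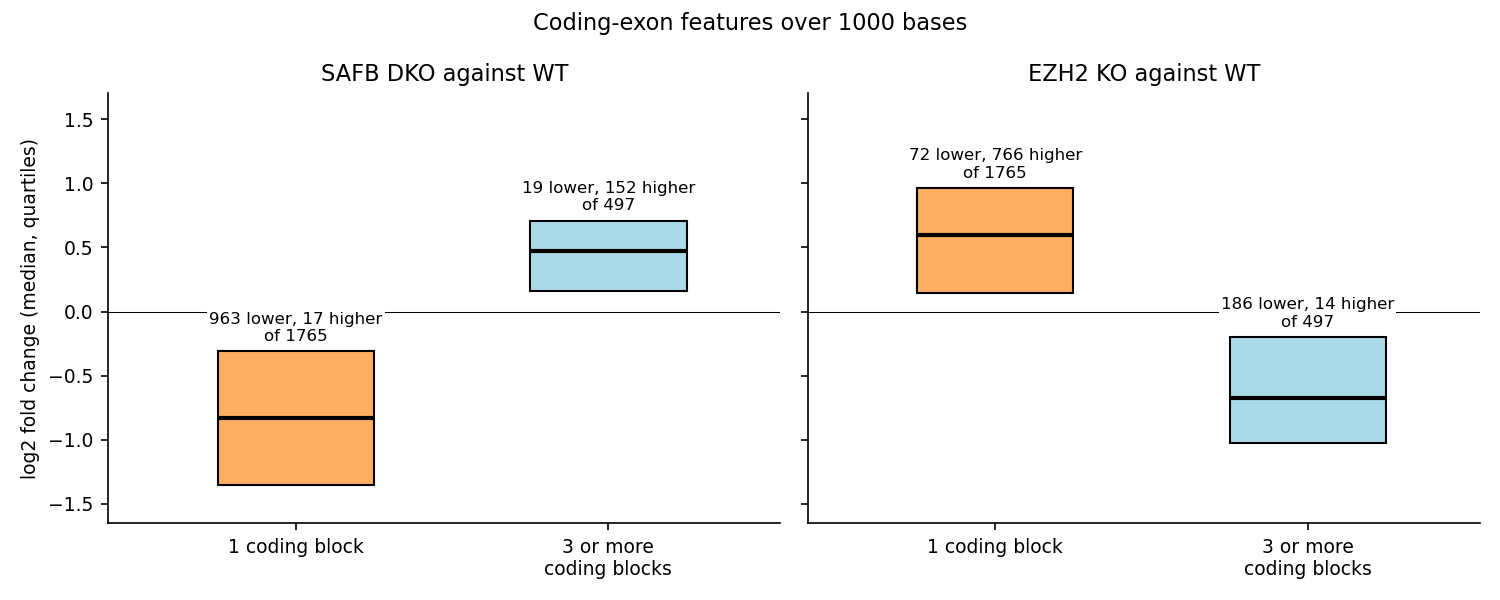
Log2 fold change against WT of members over 1000 bases by number of coding blocks, with SAFB DKO in the left panel and EZH2 KO in the right panel. Boxes span the quartiles with a line at the median, and the numbers are members lower, higher and tested. Long members of 1 block lie mostly below 0 in SAFB DKO and above 0 in EZH2 KO, and long members of 3 or more blocks lie the other way.

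The same division appeared within genes. Members over 1000 bases held 34.6% and 35.4% of all member counts in SAFB DKO, 62.2% and 61.8% in EZH2 KO, and 48.2%, 48.0% and 46.7% in WT. In 1252 genes with both long and short members, where short means at most 300 bases, the median log2 ratio of long to short counts was 1.88 and 1.90 in SAFB DKO, 3.35 and 3.24 in EZH2 KO, and near 2.49 ± 0.0618 in WT (SD, n = 3). The ratio was higher than in WT in 218 of these genes in SAFB DKO, or 17.4%, and in 1054 genes in EZH2 KO, or 84.2%. The exact permutation test gave p = 0.1 for each knockout against WT, the smallest possible. Because the ratio is taken inside 1 library and 1 gene, it does not depend, apart from the pseudocount of 1, on scaling or on the amount of the transcript as a whole.

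Adenine content went with the size of the loss among long members. Members over 1000 bases of 1 gene were divided into 3 equal parts by adenine, at 23.4% and 27.9%, with 826 members in each. In SAFB DKO against WT the median was 0.06 in the adenine-poorest part, −0.46 in the middle and −1.15 in the adenine-richest, and 116, 312 and 612 members fell. The same parts in EZH2 KO against WT had medians of 0.10, 0.36 and 0.57. Since these parts mix single and joined coding blocks, the 1765 single blocks were also divided alone, at 24.4% and 28.9% adenine. Their medians were −0.36, −0.80 and −1.28 in SAFB DKO, with 153, 321 and 489 fallen of 589, 588 and 588, while in EZH2 KO they were close together at 0.55, 0.59 and 0.64. The joined blocks of 3 or more had 0.53, 0.57 and 0.26 in SAFB DKO and −0.62, −0.73 and −0.67 in EZH2 KO. In the parts of all long members the median count also differed, at 189, 294 and 452 counts per member and library, and so did GC content, whose 3 parts from low to high had −1.08, −0.50 and −0.02 in SAFB DKO. The adenine parts of the single blocks had median counts of 183, 307 and 537. Single blocks in 3 parts by GC content from low to high had −1.22, −0.87 and −0.40 in SAFB DKO. The part of count and GC content in the adenine result was not tested. Members of at most 300 bases differed less, with 0.52, 0.45 and 0.27 in 3 parts by adenine. Across 5 equal parts from the start to the stop of the coding sequence the SAFB DKO medians lay between 0.33 and 0.39, but calls were most frequent in the middle. From start to stop 188, 308, 507, 420 and 206 members fell in SAFB DKO, and 127, 227, 411, 263 and 121 rose in EZH2 KO, of 8516 or 8517 members in each part. Position was the middle of a member's coding bases, so a long member that covers most of a coding sequence falls in the middle parts by definition. The part of length in these counts was not tested.

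A purine run was also searched, the letters GAAGA on the sense strand with overlapping matches counted. It was present in the longest coding block of 83.5% of members over 1000 bases and of 41.6% of all members of 1 gene, and it occurred 3.44 times per kilobase in those long members and 3.91 times per kilobase in all. The long members were also divided into 3 parts by matches per kilobase over all their exonic bases. From low to high the medians against WT were −0.17, −0.58 and −0.78 in SAFB DKO, and 0.20, 0.51 and 0.42 in EZH2 KO. These parts mix single and joined coding blocks. Among the shown exons that were lower in SAFB DKO the density in the longest coding block was 3.50 matches per kilobase in Srrm2, 6.65 in Rif1, 13.8 in L1td1 and 2.82 in Ccdc73. Among those that were higher it was 4.56 in Actb, 10 in Aldoa, 0 in Eef1a1 and 7.94 in Fasn, so the 2 sets overlapped. A match is a description of the letters and not of binding.

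At the level of genes, the counts of a gene's members were summed and 9890 genes were tested. In SAFB DKO against WT 1279 genes fell and 1834 rose, or 12.9% and 18.5%, beside 25.4% and 11.7% of all gene and class sums tested, with a median of 0.31. In EZH2 KO against WT 2932 fell and 1034 rose, or 29.6% and 10.5%, beside 21.7% and 17.3% of all sums, with a median of −0.50. Between the knockouts 1657 were lower and 4420 were higher in SAFB DKO, or 16.8% and 44.7%, beside 31.1% and 30.5% of all sums. With TMM over coding members the lower share of the gene calls was 82.2% in SAFB DKO against WT instead of 41.1%, 46.2% in EZH2 KO against WT instead of 73.9%, and 53.6% between the knockouts instead of 27.3%. With column totals it was 23.0%, 85.0% and 17.5% in the same order. The 1834 genes risen in SAFB DKO against WT became 730 without SAFB DKO 1, 969 without SAFB DKO 2, 2963 without EZH2 KO 1, 2990 without EZH2 KO 2, 816 without WT 1, 842 without WT 2 and 1135 without WT 3. The 1279 fallen became 907, 1046, 1622, 1623, 966, 960 and 1119 in the same order, so that more genes fell than rose without either SAFB DKO library, WT 1 or WT 2. Genes averaging 50 counts or more had a median of 0.26 in SAFB DKO against WT, while EZH2 KO had −0.20. Of 2172 genes whose longest member was over 1000 bases, SAFB DKO had 949 fallen and 226 risen, and EZH2 KO had 350 fallen and 830 risen. Of the other 7718 genes, SAFB DKO had 330 fallen and 1608 risen, or 4.28% and 20.8%, with a median of 0.44, and EZH2 KO had 2582 fallen and 204 risen, or 33.5% and 2.64%, with a median of −0.68.

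Abundant genes with 1 very long coding exon fell in SAFB DKO. Srrm2, a large serine- and arginine-rich protein of nuclear speckles, had 1720 and 1875 CPM in SAFB DKO, 5528 and 5584 CPM in EZH2 KO, and 3746, 3903 and 3573 CPM in WT. Its log2 fold change was −1.06 ± 0.11 (SE) in SAFB DKO (adjusted p = 4.86e-06) and 0.57 ± 0.10 in EZH2 KO against WT (adjusted p = 0.00107). Nearly all of this came from exon 10 (mm10 chr17:23815183-23820606), which alone had 1540 and 1686 CPM in SAFB DKO against 3470, 3615 and 3315 CPM in WT. Tet1, a dioxygenase that oxidises 5-methylcytosine, had 972 and 987 CPM in SAFB DKO, 2801 and 3043 CPM in EZH2 KO, and 1802, 1816 and 1846 CPM in WT. Both genes thus had the 3 groups fully apart, with SAFB DKO lowest and EZH2 KO highest.

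L1td1, an RNA-binding protein of pluripotent cells that derives from a LINE-1 element, had 419 and 420 CPM in SAFB DKO, 1926 and 2094 CPM in EZH2 KO, and 1643, 1583 and 1582 CPM in WT. It was 3.82-fold lower in SAFB DKO (log2 −1.93 ± 0.12, adjusted p = 4.42e-08), while its rise in EZH2 KO (0.33 ± 0.11, adjusted p = 0.03) was lost under several scalings and left-out libraries, with 0.08 under column totals. Rif1, a regulator of replication timing and of telomere repair, had 540 and 709 CPM in SAFB DKO, 1991 and 2681 CPM in EZH2 KO, and 1658, 1686 and 2089 CPM in WT. It fell in SAFB DKO (−1.54 ± 0.17, adjusted p = 1.01e-05), and its value of 0.37 ± 0.16 in EZH2 KO did not pass (adjusted p = 0.0865). Mki67, the proliferation antigen that coats mitotic chromosomes, had 683 and 674 CPM in SAFB DKO, 1591 and 1814 CPM in EZH2 KO, and 1105, 1117 and 1192 CPM in WT, and it fell in SAFB DKO (−0.75 ± 0.12, adjusted p = 0.000234) and rose in EZH2 KO (0.58 ± 0.11, adjusted p = 0.00166).

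Not every abundant long gene rose in EZH2 KO. Ankrd11, a chromatin regulator, had 868 and 857 CPM in SAFB DKO, 1587 and 1577 CPM in EZH2 KO, and 1636, 1441 and 1624 CPM in WT. Atrx, a chromatin remodeller, had 760 and 869 CPM in SAFB DKO, 1205 and 1698 CPM in EZH2 KO, and 1517, 1569 and 1791 CPM in WT. Both fell in SAFB DKO and overlapped with WT in EZH2 KO. Akap12, a scaffold of protein kinase A, fell in both knockouts, with −0.59 ± 0.11 in SAFB DKO (adjusted p = 0.00111) and −0.46 ± 0.11 in EZH2 KO (adjusted p = 0.00651), although the second call was lost with TMM over coding members (−0.07) and when genes averaged 50 counts or more (−0.20).

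Genes of short exons showed the opposite picture. Aldoa, the glycolytic aldolase, had 772 and 585 CPM in SAFB DKO, 99.97 and 91.2 CPM in EZH2 KO, and 233, 313 and 231 CPM in WT. Its log2 fold change was 1.39 ± 0.16 in SAFB DKO (adjusted p = 1.62e-05) and −1.44 ± 0.18 in EZH2 KO against WT (adjusted p = 8.49e-05). Eef1a1, the elongation factor that brings aminoacyl-tRNA to the ribosome, had 1172 and 970 CPM in SAFB DKO, 154 and 205 CPM in EZH2 KO, and 574, 561 and 557 CPM in WT. Its reads can be shared with processed copies elsewhere in the genome, as can those of Aldoa with the retrocopy Aldoart1, so their assignment is uncertain. Fn1, the matrix protein fibronectin, had 845 and 791 CPM in SAFB DKO, 211 and 238 CPM in EZH2 KO, and 483, 437 and 490 CPM in WT.

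Actb, cytoplasmic actin, had 2155 and 2472 CPM in SAFB DKO, 465 and 576 CPM in EZH2 KO, and 1659, 1593 and 1828 CPM in WT. Its fall in EZH2 KO was −1.70 ± 0.14 (adjusted p = 1.37e-05), and its rise in SAFB DKO, 0.45 ± 0.13 (adjusted p = 0.0144), was lost with TMM over coding members (0.11) and without SAFB DKO 2, WT 1 or WT 2 (0.32, 0.42 and 0.40). Fasn, the fatty acid synthase, had 772 and 685 CPM in SAFB DKO, 187 and 186 CPM in EZH2 KO, and 448, 420 and 515 CPM in WT, and its rise in SAFB DKO (0.66 ± 0.13, adjusted p = 0.00122) was also lost with TMM over coding members (0.33). Hsp90ab1, the cytosolic chaperone with the highest sum of all genes, had 5171 and 4512 CPM in SAFB DKO, 2518 and 2599 CPM in EZH2 KO, and 4224, 4351 and 3931 CPM in WT. It fell in EZH2 KO, and its 0.22 ± 0.11 in SAFB DKO did not pass (adjusted p = 0.139).

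**Figure D4:**
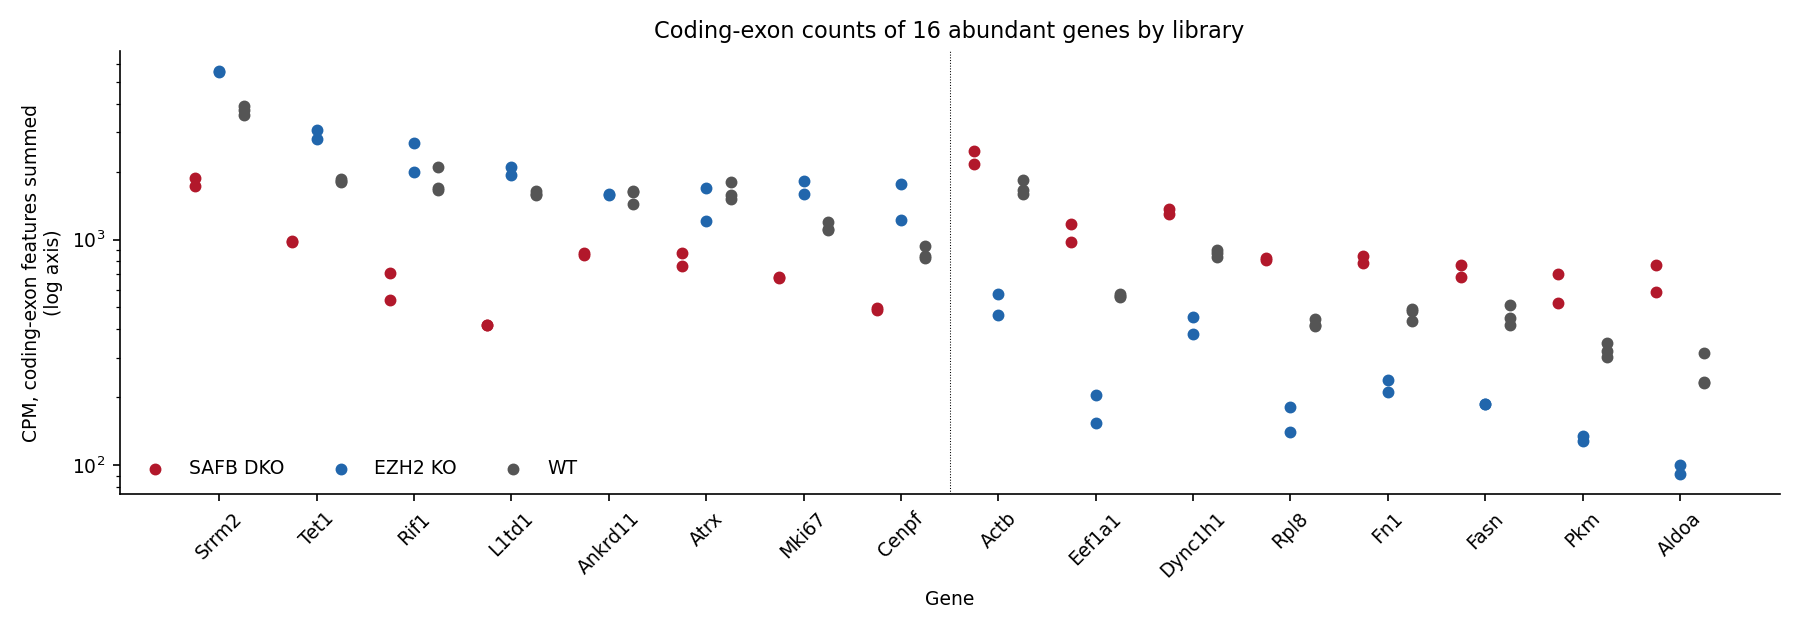
CPM on a log axis of the summed coding members of named genes in each library, with SAFB DKO, EZH2 KO and WT from left to right. Srrm2, Tet1, Rif1 and L1td1 are lowest in SAFB DKO, and Actb, Eef1a1, Aldoa and Fasn are highest there and lowest in EZH2 KO.

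Zinc finger genes were the list that fell most often. Of 300 genes with members, 294 were tested, and 192 fell in SAFB DKO against WT while 6 rose, with a median of −1.15, beside 1279 and 1834 of all 9890 genes. In EZH2 KO against WT 17 fell and 152 rose, with a median of 0.73, beside 2932 and 1034 of all 9890 genes. The list was taken by gene symbol. Many of its proteins bind DNA and silence transposons, with their finger array in 1 final exon, but it also holds RNA-binding proteins such as Zfp36. The median longest member was 1577.5 bases, against 378 bases over all genes. The 207 zinc finger genes with a member over 1000 bases gave 172 that fell and 0 that rose in SAFB DKO, with a median of −1.30, and 7 that fell and 139 that rose in EZH2 KO. Of all 2172 genes with such a member, 43.7% fell and 10.4% rose in SAFB DKO, and 16.1% fell and 38.2% rose in EZH2 KO. The 87 with shorter members gave 20 that fell and 6 that rose in SAFB DKO, with a median of −0.29, and 10 and 13 in EZH2 KO. Of all 7718 genes with shorter members, 4.28% fell and 20.8% rose in SAFB DKO, and 33.5% fell and 2.64% rose in EZH2 KO.

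Lists of housekeeping genes went the other way. They are read against the 18.5% of all coding genes that rose in SAFB DKO and the 29.6% that fell in EZH2 KO, and against 20.8% and 33.5% of genes with no member over 1000 bases, to which 22 of the 23 ribosomal protein genes, 9 of the 12 glycolytic genes, 34 of the 35 proteasome genes, 50 of the 51 respiratory chain genes and all 50 histone genes belong. Of 23 genes for cytosolic ribosomal proteins, 19 rose and 0 fell in SAFB DKO with a median of 0.93, and 1 rose and 20 fell in EZH2 KO with a median of −1.20. Rpl8, a protein of the large ribosomal subunit, had 829 and 807 CPM in SAFB DKO, 141 and 181 CPM in EZH2 KO, and 446, 414 and 420 CPM in WT. Of 12 glycolytic genes, 11 rose and 0 fell in SAFB DKO with a median of 1.16, and 0 rose and 8 fell in EZH2 KO with a median of −0.84. Pfkp, a phosphofructokinase, had 97.9 and 74.2 CPM in SAFB DKO, 16.4 and 20.8 CPM in EZH2 KO, and 25.1, 32.0 and 28.1 CPM in WT.

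Genes of the proteasome, which degrades tagged proteins, gave 19 that rose and 0 that fell of 35 tested in SAFB DKO, with a median of 0.73, and 0 and 29 in EZH2 KO, with a median of −1.24. Nuclear-encoded genes of the respiratory chain gave 26 that rose and 0 that fell of 51 in SAFB DKO, with a median of 0.80, and 0 and 33 in EZH2 KO, with a median of −1.27. Of 15 genes for cholesterol and fatty acid synthesis, 12 rose and 0 fell in SAFB DKO, and 0 rose and 10 fell in EZH2 KO. Replication-dependent histone genes, whose coding sequence is 1 short exon, gave 30 that rose and 0 that fell of 50 in SAFB DKO, with a median of 0.66, and 1 that rose and 43 that fell in EZH2 KO, with a median of −1.32. Reads from the near-identical histone copies cannot be assigned with certainty.

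The medians of these 6 lists and of the zinc finger list kept their signs under the 4 other scalings, but TMM over coding members left 14 of the 23 ribosomal protein genes, 5 of the 50 histone genes, 6 of the 35 proteasome genes and 8 of the 51 respiratory chain genes as risen in SAFB DKO. The zinc finger count with that scaling was 215 fallen and 1 risen. Without SAFB DKO 1 the risen genes in SAFB DKO numbered 9 of the proteasome, 10 of the respiratory chain, 18 histone genes and 5 of cholesterol and fatty acid synthesis; without SAFB DKO 2 they numbered 11, 20, 11 and 8, and without WT 2 they numbered 10, 11, 18 and 7. Without WT 1 they numbered 11, 15, 17 and 8, and without WT 3 they numbered 16, 17, 19 and 8. The glycolytic count stayed at 11 without any 1 of the 7 libraries, and the ribosomal protein count at 16 to 21.

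The lists that follow are read against the same shares of genes with no member over 1000 bases, which are most of the genes in each, 20.8% risen and 4.28% fallen in SAFB DKO and 2.64% risen and 33.5% fallen in EZH2 KO. Aminoacyl-tRNA synthetases gave 9 that rose and 0 that fell of 20 in SAFB DKO and 0 and 16 in EZH2 KO. Genes of DNA replication gave 14 that rose and 1 that fell of 24 in SAFB DKO and 1 and 19 in EZH2 KO. The hnRNP proteins, which package nascent RNA, gave 11 that rose and 1 that fell of 23 in SAFB DKO and 1 and 20 in EZH2 KO. Translation factors gave 9 that rose and 3 that fell of 18 in SAFB DKO and 1 and 16 in EZH2 KO. Polycomb genes gave 8 that rose and 1 that fell of 19 in SAFB DKO and 0 and 9 in EZH2 KO. Extracellular matrix and adhesion genes gave 9 that rose and 2 that fell of 18 in SAFB DKO and 0 and 11 in EZH2 KO.

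The remaining lists are set beside 18.5% of all coding genes risen and 12.9% fallen in SAFB DKO and 10.5% risen and 29.6% fallen in EZH2 KO. The spindle, SR factor and SAFB family counts lie within a few genes of those shares. Of 22 chromatin remodelling genes, whose median longest member was 1587 bases, 0 rose and 8 fell in SAFB DKO. In EZH2 KO 1 rose and 13 fell. Their SAFB DKO median of −0.08 turned positive with DESeq2, with column totals and with TMM over all features. The 14 with a member over 1000 bases gave 0 risen and 6 fallen in SAFB DKO, beside 10.4% and 43.7% of all such genes. In EZH2 KO these 14 gave 1 risen and 7 fallen, beside 38.2% and 16.1%. The 8 others gave 0 and 2 in SAFB DKO and 0 and 6 in EZH2 KO, beside 20.8% and 4.28%, and 2.64% and 33.5%. Of 23 pluripotency genes, 9 rose and 5 fell in SAFB DKO, and 5 rose and 15 fell in EZH2 KO. The 10 of these with a member over 1000 bases gave 2 that rose and 4 that fell in SAFB DKO, and the 13 others gave 7 and 1. Among all coding genes split in the same way, 10.4% rose and 43.7% fell with such a member, and 20.8% and 4.28% without. Of 20 spindle and kinetochore genes 5 rose and 6 fell, of 13 SR splicing factor genes 3 rose and 4 fell, and of 10 SAFB family and nuclear matrix genes, which include Safb and Safb2, 1 rose and 4 fell in SAFB DKO. Cytoskeletal genes gave 7 that rose and 1 that fell of 24, and chaperones gave 9 and 2 of 21; their medians of 0.18 and 0.23 were −0.16 and −0.11 with TMM over coding members, where the spindle median of 0.07 was −0.27. In EZH2 KO 3 spindle genes rose and 5 fell, with a median of −0.26 that was 0.12 with TMM over coding members, and the counts were 1 and 5 for SR factors, 2 and 5 for the SAFB family and nuclear matrix, 1 and 18 for the cytoskeleton and 0 and 14 for chaperones.

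**Figure D5:**
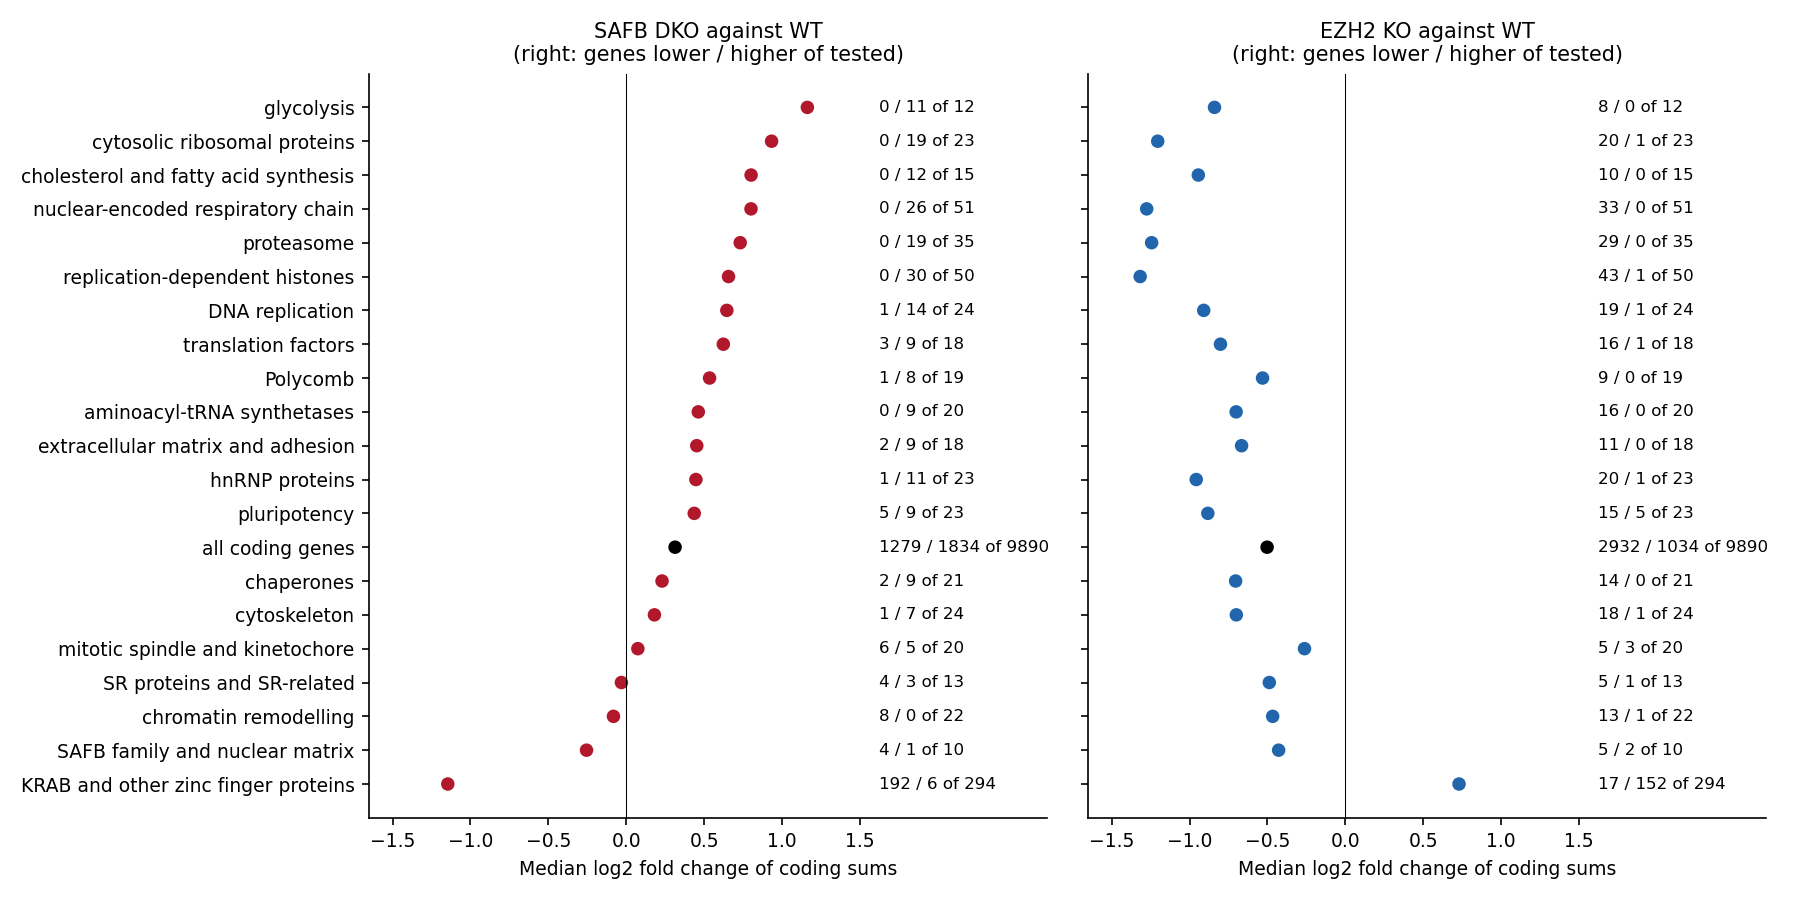
Median log2 fold change against WT of 20 gene lists and of all 9890 genes, with SAFB DKO in the left panel and EZH2 KO in the right panel and the counts of genes that fell and rose beside each. Zinc finger genes lie at −1.15 in SAFB DKO and 0.73 in EZH2 KO, and ribosomal protein genes at 0.93 and −1.20.

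Beyond Safb and Safb2, the genes that fell most in SAFB DKO were low in WT as well. Ccdc73, a coiled-coil protein, had 2.78 and 1.13 CPM in SAFB DKO, 69.2 and 84.8 CPM in EZH2 KO, and 20.1, 24.1 and 14.8 CPM in WT, or 9.86-fold lower in SAFB DKO (log2 −3.30 ± 0.33, adjusted p = 3.16e-06). Zfp931, a zinc finger gene, had 2.87 and 2.37 CPM in SAFB DKO, 33.1 and 53.0 CPM in EZH2 KO, and 17.3, 19.5 and 20.2 CPM in WT. Dsel, Tchh, 2410141K09Rik and Gm45871 followed with log2 fold changes between −2.84 and −2.59. In Ccdc73 and Zfp931 every EZH2 KO library stood above every WT library, and the rise passed the test in both.

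The genes that rose most in SAFB DKO included Pfkp and Gpi1 of glycolysis. Upp1, uridine phosphorylase, had 125 and 86.1 CPM in SAFB DKO, 11.4 and 16.2 CPM in EZH2 KO, and 19.5, 30.4 and 27.7 CPM in WT (log2 2.03 ± 0.22, adjusted p = 6.21e-06 in SAFB DKO). Pnma5, a gene of the paraneoplastic antigen family, had 31.7 and 15.0 CPM in SAFB DKO, 16.5 and 21.2 CPM in EZH2 KO, and 5.06, 5.93 and 6.06 CPM in WT, and rose in both knockouts. Pfkp came next, and Aldoart1, Gpi1, Mrps24 and Ddah2 had log2 fold changes between 1.45 and 1.57. Upp1 and Mrps24 lie on chromosome 11, whose 3398 tested members stood 0.31 above those of other chromosomes in SAFB DKO 1 and 0.09 above in SAFB DKO 2 as a difference of median log2 levels, against −0.03 to 0.03 in the other libraries; the part of this in their rise was not tested.

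The 8 genes that rose most in EZH2 KO were at 15.2 CPM or less in every SAFB DKO and WT library. Fam111a, a protease that counters replication barriers, had 82.4 and 84.8 CPM in EZH2 KO and 10.8, 15.2 and 13.2 CPM in WT, with a log2 fold change of 2.68 ± 0.17 (adjusted p = 5.11e-06). Sync, a muscle intermediate filament protein, had 33.2 and 40.3 CPM in EZH2 KO and 3.95, 3.15 and 4.23 CPM in WT. Olig2, a neural transcription factor, had 36.2 and 19.8 CPM in EZH2 KO and 3.77, 5.93 and 4.70 CPM in WT. Each of these 3 genes had SAFB DKO levels under 10 CPM.

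Genes that fell most in EZH2 KO after Ezh2 were Gsta4, Trh, Lin28a, Eif5a, Ifitm3, Prdx6 and Ppp1cb. Gsta4, a glutathione transferase, had 1.05 and 3.93 CPM in EZH2 KO and 20.4, 21.2 and 18.6 CPM in WT. Trh, the precursor of thyrotropin-releasing hormone, had 3.76 and 6.13 CPM in EZH2 KO and 32.6, 48.1 and 34.8 CPM in WT. Lin28a, a pluripotency factor that blocks let-7 maturation, had 0.752 and 2.83 CPM in EZH2 KO and 15.1, 11.3 and 13.7 CPM in WT. None of these 3 was called in SAFB DKO against WT, but the difference between the 2 knockouts passed the test for each, with log2 values of 3.64 for Gsta4, 2.79 for Trh and 3.28 for Lin28a.

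The labelled cell type was checked on the same members. Of 10 embryonic stem cell markers, 9 had coding members, with Sox2 having none, and their summed level was 907 to 928 CPM in SAFB DKO, 753 to 754 CPM in EZH2 KO and 746 to 785 CPM in WT. Taken singly, 6 of the 9 rose and 1 fell in SAFB DKO against WT, beside 18.5% and 12.9% of all coding genes. In EZH2 KO 1 rose and 7 fell, beside 10.5% and 29.6%. The similar sums of EZH2 KO and WT thus do not hold for each marker. Neural markers, 4 of 6 with members, summed to 70.4 to 71.7 CPM in SAFB DKO, 122 to 156 CPM in EZH2 KO and 176 to 249 CPM in WT. Markers of fibroblasts, endoderm, trophoblast, mesoderm and the 2-cell-like state each summed to at most 11.3 CPM in any library, and no marker with members was at 0 in all libraries, although the 2-cell-like markers were at 0 in both EZH2 KO libraries. The part of the neural markers in the results above was not tested.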

How the data were processed

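RNA was measured in 7 EZH2-antibody precipitates with ribosomal RNA removed (KAPA RNA HyperPrep with RiboErase, per the labels' protocols). The deposited table holds raw counts per feature made with featureCounts 2.0.3, per the file headers, on build mm10, per the submitters' processing notes. The feature names show that features were called on WT libraries. Of the table's value columns, 3 belong to no sample given and were not used.

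Features were classed by GENCODE M21 basic genes on mm10 with Python 3.11.15. Counts of the 7 libraries, 7050832 to 21832539 each, entered 1 fit by group in edgeR 4.0.16 under R 4.3.3 (filterByExpr, TMM over tested unlisted features, quasi-likelihood test, adjusted p under 0.05), once per feature over 192964 features and once per gene and class over 37211 sums. On counts simulated for SAFB DKO against WT over 43689 members, the fit called 50 of 50 members raised by a fold of 4, 49 of 50 at a fold of 0.25, 16 of 50 at a fold of 2 and 13 of 50 at a fold of 0.5, with 6 false calls. The changed members were drawn from those averaging at least 50 counts. The simulated spread (dispersion) was set at 0.05, and members alone were fitted and scaled. In the data 13889 of the 43599 tested members averaged that many counts, and recovery at lower counts was not tested. DESeq2 1.42.0, other scalings, filters, a fold of 1.5, at least 90% coding bases and left-out libraries were alternatives. Library values were compared by exact two-sided permutation tests. Within-gene ratios used a pseudocount of 1 and at least 50 counts. A fold against a group with no count used a floor of 3 counts over the group. Bounds and SDs of shares cover counting and clone error of these libraries only.

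Named genes were the 12 most abundant, the 8 with the largest fold each way in each knockout against WT and the 4 each way between knockouts (mean of at least 10 CPM, no overlap), the targeted genes and the 2 most abundant of each list, and for features the 3 largest each way with at least 5 CPM; some were left out. Zfp931 and Ccdc73 are among them. Members and lists were chosen with earlier results of these data known. The length bins, the 1000-base and 300-base limits, the coding-block splits, the long to short ratio, the adenine, purine and GAAGA measures, the split of lists by length, the adenine split by coding block, the comprehensive annotation and the look at chromosome 11 were chosen after the values were seen, and coding share, exon number and coding length were also looked at.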

Additional observations from a re-analysis of the deposited data

Results flagged for a closer look

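4 library values moved in opposite directions in the knockouts: every SAFB DKO library lay on one side of the 3 WT libraries and every EZH2 KO library on the other. The differences between the knockouts rest on 2 libraries against 2, where the exact permutation test cannot go below p = 0.3333, so the difference was not tested beyond that. The share of all counts in coding members was 32.6% ± 0.0504 in SAFB DKO and 24.3% ± 1.24 in EZH2 KO (SD, n = 2 each), a difference of 8.25 percentage points. This share depended on the listed peaks in the total. Outside the filtered list both knockouts lay below WT, at 33.3% in SAFB DKO, 33.5% in EZH2 KO and 35.1% in WT. The knockouts then differed by −0.15 percentage points, and by −2.12 among members with at least 90% coding bases. The coding to intron log2 ratio within genes was 0.10 ± 0.04 in SAFB DKO and −0.92 ± 0.04 in EZH2 KO, a difference of 1.03. Members over 1000 bases held 35.0% ± 0.592 of member counts in SAFB DKO and 62.0% ± 0.316 in EZH2 KO, a difference of −27.0 percentage points. The long to short log2 ratio within genes was 1.89 ± 0.02 in SAFB DKO and 3.30 ± 0.08 in EZH2 KO, a difference of −1.41. The EZH2 KO libraries also had the lowest depth and a column naming pattern of their own, whose part in these differences cannot be told apart from genotype.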

How the results depend on the processing

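Named genes and features, each taken once per comparison, made 282 results with 3802 values under alternatives. Of these values, 3534 stayed on their side of the threshold, 148 lost the call, 110 gained one and 10 reversed. A reversal was a change of sign with a call in at least 1 of the 2 settings. Any value that changed sign with no call in either setting is among the 3534. The 10 reversals were all between the knockouts: with column totals Akap12 was 0.33, Zfp462 0.018, Jarid2 0.046 and Acin1 0.11, and with TMM over coding members Hist1h1a was −0.071, Eif3a −0.63, Eprs −0.043, Hnrnpu −0.28, Top2a −0.15 and Dnmt1 −0.031. Members called in SAFB DKO against WT (3452) numbered 5920 with column totals, 5301 with DESeq2, 1230 against a fold of 1.5, 1031 among members with at least 90% coding bases, which are fewer, and 1527 to 8220 with 1 library left out. Those called in EZH2 KO against WT (7158) numbered 10981 with column totals, 3207 against a fold of 1.5, 1637 with at least 90% coding bases and 2819 to 14013 with 1 library left out. Between the knockouts the 16041 called numbered 10513 with TMM over coding members, 7807 with a mean of at least 50 counts, where fewer were tested, 3850 among members with at least 90% coding bases and 12393 to 21521 with 1 library left out. Genes called numbered 1637 to 4613 in SAFB DKO against WT, 2803 to 4710 in EZH2 KO against WT and 5296 to 6479 between the knockouts with 1 library left out. With the replicate number as a block, EZH2 KO against WT gave 3241 members and 2388 genes; same-numbered libraries deviated together with r = 0.09 over 13889 members, so they share only a number, and both SAFB DKO libraries carry the same number, so no block was possible there.

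The share of counts in coding members differed by −1.79 percentage points for SAFB DKO minus WT outside the filtered list, by −1.86 with at least 90% coding bases and by 3.78 with the comprehensive annotation, against 3.33. For EZH2 KO minus WT it was −1.64 outside the list and 0.263 with at least 90% coding bases, against −4.92, and for SAFB DKO minus EZH2 KO it was −0.15 and −2.12, against 8.25. The coding to intron ratio of summed counts gave 0.10 for SAFB DKO minus WT, −0.21 for EZH2 KO minus WT and 0.31 for SAFB DKO minus EZH2 KO; with at least 200 counts it gave 0.52 for SAFB DKO minus WT and 0.95 for SAFB DKO minus EZH2 KO. The long to short ratio of summed counts gave −0.74 for SAFB DKO minus WT and −1.62 for SAFB DKO minus EZH2 KO, and −1.48 between the knockouts with at least 200 counts. The causes were not tested, except that smaller sets of members or libraries follow from those alternatives' own construction. The median count per member was 3 and 5 in the EZH2 KO libraries, against 21 to 30 in the others; the part of depth in the EZH2 KO calls was not tested.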

Other observations

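Chromosome 11 stood apart in 1 SAFB DKO clone. Over its 3398 tested members the median log2 level relative to the WT mean was 0.54 in SAFB DKO 1 and 0.32 in SAFB DKO 2, against 0.22 and 0.23 over the members of the other chromosomes in the same libraries. In the EZH2 KO libraries the median of chromosome 11 was −0.74 and −0.48, against −0.73 and −0.44 elsewhere. Chromosome 11 held 9.86% and 8.39% of all member counts in SAFB DKO, 7.87% and 7.72% in EZH2 KO, and 7.87%, 7.75% and 8.25% in WT. Unlisted introns of chromosome 11 had a median of 0.07 in SAFB DKO against WT, and introns of the other chromosomes had −0.19.

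Members over 2 single-exon genes that are low in WT rose in EZH2 KO. A member over the single coding exon of Pom121l2 (mm10 chr13:21980932-21983990) had 0.821 and 0.807 CPM in SAFB DKO, 25.3 and 22.2 CPM in EZH2 KO, and 4.41, 3.62 and 2.98 CPM in WT. A member over the single exon of Trim52 (mm10 chr14:106106908-106108022) had 1.23 and 0.269 CPM in SAFB DKO, 12.6 and 15.7 CPM in EZH2 KO, and 2.67, 1.93 and 1.04 CPM in WT. Pom121l2 also fell in SAFB DKO, while the Trim52 libraries of SAFB DKO and WT overlapped and its −1.29 ± 0.52 did not pass edgeR's quasi-likelihood test (adjusted p = 0.0988). An abundant member over Eef2 and the small nucleolar RNA gene Snord37 inside it, had 3547 and 3376 CPM in SAFB DKO, 928 and 1012 CPM in EZH2 KO, and 1816, 1835 and 1641 CPM in WT, and its reads cannot be divided between these genes.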
